A study of Mus musculus with 2 samples.

Results

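Cluster 2 of the papain-immunized conventional type 2 dendritic cells (cDC2s) held 1294 cells, chosen as the papain cells whose deposited mRNA cluster number was 2. They made up 20.9% of the 6190 papain cells with such a number (95% exact binomial interval 19.9% to 21.9%), out of 7596 cells in the papain library and 11067 cells in the series. By the header of the deposited label, the cDC2s were clustered by mRNA with the libraries split, which gave 9 papain clusters and 7 naive clusters, so equal numbers in the libraries do not mark the same cells. These labels are not the mRNA subclusters over both libraries that the paper describes. The cells came from B6 mice, which were either left unimmunized (naive) or given ovalbumin (OVA) with papain in the rear footpads and examined on day 1. Live B220- CD11c+ MHCIIhi cells, the gate of migratory DCs, were sorted from skin-draining lymph nodes and profiled by CITE-seq, which counts mRNA as unique molecular identifiers (UMIs) together with tags of 12 antibodies. By the methods, popliteal nodes gave the papain cells and pooled skin-draining nodes the naive cells, so node site and immunization cannot be told apart. Each condition had 1 library. No test between conditions or clusters was therefore made, and all 95% intervals cover counting error only.

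Migratory cDC2s carry antigen from the skin to the draining lymph node, where they show it to CD4+ T cells on MHC class II molecules. As they mature they raise CCR7, which guides them into the node, and costimulatory molecules such as CD80 and CD86, while they hold MHC class II on the surface and reduce its new synthesis. CD301b, a C-type lectin encoded by Mgl2, marks the skin cDC2 subset that is known for priming T helper 2 cells against allergens such as the protease papain.

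Cells of cluster 2 held a median of 14679 UMIs (quartiles 12740 and 16947), against 14851 in the other 4896 labelled papain cells, and none was among the deepest 5% of the library. Mitochondrial UMIs took a median of 3.07% against 2.63%. Only 2 cell barcodes occurred in both libraries, 1 of them in cluster 2. The label cDC2 was checked against marker genes. Of 10 cDC2 markers, 5 reached 50 counts per 1000000 UMIs (CPM) in cluster 2 or the other cells, among them Irf4, Sirpa and Zeb2. Itgam, Clec10a, Mgl2, Cd209a and Cd7 were below 2 CPM in both, and Cd209a was at 0 in cluster 2. The cDC2 markers summed to 620 CPM in cluster 2 and to 507.7 to 913 CPM over all 9 clusters. Of the cDC1 markers, Irf8 and Batf3 (194 and 240 CPM) were present, as they were in the other cells (246 and 241 CPM), while Xcr1 and Clec9a were below 1 CPM. Langerhans cell markers summed to 20.4 CPM, the lowest of the 9 clusters (highest 83.8), with Cd207 at 0.0518 CPM. A UMI of Cd3e or Trac, which encode parts of the T cell receptor complex, occurred in 35 of the 1294 cells (2.705%, interval 1.89% to 3.74%), against 4.33% of the other labelled cells. The T cell markers summed to 10.4 CPM against 22.7 CPM, B cell markers to 6.74 against 14.9 CPM, NK cell markers to 19.6 against 68.8 CPM, almost all of it Klrk1, and monocyte and macrophage markers to 29.5 against 48.9 CPM. Markers of lymph node resident DCs were higher, at 51.4 against 32.1 CPM, mainly through Esam (34.6 against 17.7 CPM).

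The antibody tags did not enter the mRNA clustering and so describe cluster 2 independently of the genes that made it, although the cDC2 gate itself was drawn on antibody values. The authors sorted the cDC2s into 3 CD301b classes. In cluster 2, 869 cells were CD301bhi (67.2%, interval 64.5% to 69.7%), 354 were CD301bint (27.4%) and 71 were CD301blo (5.49%, interval 4.31% to 6.87%). Among the other labelled cells 41.3% were CD301bhi and 28.6% CD301blo. The CD301bhi share was the highest of the 9 clusters, but clusters 5 (65.7%, interval 61.6% to 69.6%) and 1 (61.9%, interval 59.3% to 64.4%) were close to it, and the interval of cluster 5 overlapped that of cluster 2. The lowest share was 7.45%, in cluster 4. Read the other way, cluster 2 held 30.04% of all labelled CD301bhi cells, 19.4% of the CD301bint cells and 4.83% of the CD301blo cells.

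Each antibody is read through a 15-base tag. The tags of the antibodies on which the following results rest are shown because they are what was counted:
CD301b: cttgccttgcgattt
I-A/I-E (MHC class II): ggtcaccagtatgat
CD11c: gttatggacgcttgc
CD172a: gattcccttgtagca
CD11b: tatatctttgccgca
CD24: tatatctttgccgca
CD11b and CD24 are listed with the same tag, so their values cannot be assigned to either protein and are given for the tag only.

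On the deposited natural-log scale, on which each tag is set against all tags of the same cell, the median CD301b value of cluster 2 was 2.08 (quartiles 1.46 and 2.63), the highest of the 9 clusters, against 1.40 in the other labelled cells. The next values were 1.94 in cluster 5, 1.88 in cluster 1 and 1.68 in cluster 8, all within the quartiles of cluster 2, and the lowest was 0.307 in cluster 4. Of the 1294 cells, 986 (76.2%, interval 73.8% to 78.5%) lay above the median of the other labelled cells. The median CD301b tag count was 126, against 158 in cluster 1 and 285.5 in cluster 5, so by counts cluster 2 was the third highest.

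CD11c, an integrin used to define DCs, showed the largest difference of medians between cluster 2 and the other labelled cells among the 12 antibodies. Its median value was 1.48 (quartiles 1.03 and 2.01), the lowest of the 9 clusters, and the other clusters ran from 1.92 in cluster 7 to 2.62 in cluster 9. Only 179 cells (13.8%, interval 11.997% to 15.8%) were above the median of the other labelled cells, which was 2.30. By that share the columns of CD11b (12.4%) and CD24 (13.2%) lay slightly further out, and MHC class II (86.1% above) was about as far. The CD11c tag count was also low, with a median of 61 in cluster 2 against 186. The shared CD11b and CD24 tag was also lowest in cluster 2, with medians of 0.512 and 0.447 in its separate columns against 0.711 and 0.644. By tag count it was not, since cluster 4 had medians of 9 and 8 tags against 11 and 9 in cluster 2. CD172a, the SIRPα protein found on cDC2s, was by contrast highest in cluster 2 (2.06 against 1.87), although its count of 126 was the fourth of 9. CD8a was second of 9 (0.44 against 0.29), after cluster 7 (1.16). The medians of CD326, CD64, CD103, Ly-6C and XCR1 all stayed below 0.5 and within 0.05 of those in the other labelled cells.

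**Figure D1:**
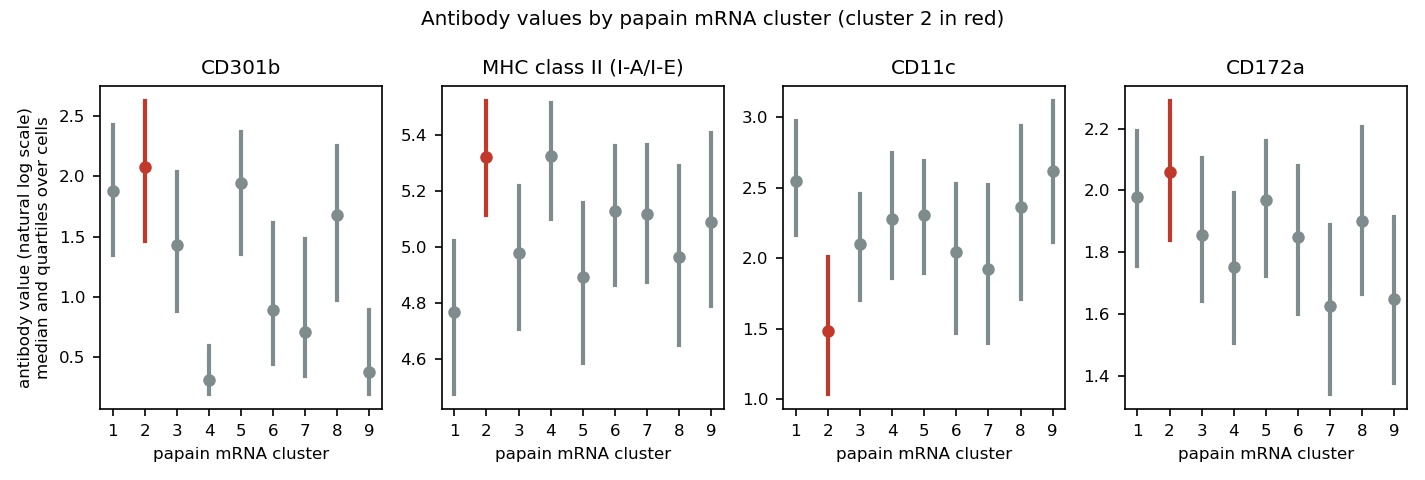
Median antibody value (points) and quartiles over cells (bars) on the deposited natural-log scale for CD301b, MHC class II, CD11c and CD172a in the 9 papain mRNA clusters, with cluster 2 in red. Cluster 2 has the highest CD301b (2.08) and CD172a (2.06) medians, the lowest CD11c median (1.48) and, beside cluster 4, the highest MHC class II median.

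MHC class II showed low mRNA beside high surface protein. The median I-A/I-E antibody value of cluster 2 was 5.32, level with cluster 4 (5.32), and the remaining clusters lay between 4.77 in cluster 1 and 5.13 in cluster 6. Its median count of 3812.5 tags was second to cluster 5 (6148.5), and the other labelled cells together had 2863.5. By count cluster 4 was the lowest of the 9, with 1808 tags, so clusters 2 and 4 were level only on the scaled value. In mRNA, H2-Aa, H2-Ab1 and H2-Eb1, which encode the chains of I-A and I-E, summed to 1833 CPM in cluster 2 and to 4081 CPM in the other cells. Cluster 2 was thus the second lowest of 9, above cluster 8 (1642 CPM) and below cluster 9 (2025 CPM), while cluster 4, equal in scaled antibody value, had 13665 CPM and cluster 7 had 9174 CPM. H2-Ab1 was at 277 CPM (interval 269.7 to 285) against 723 CPM, a log2 ratio of -1.38 (-1.42 to -1.34), H2-Aa at 857 against 1783 CPM (-1.06) and H2-Eb1 at 699.3 against 1575 CPM (-1.17). Much of this difference came from clusters 4 and 7. Without them, an alternative chosen after the values were seen, the ratios were -0.59 for H2-Ab1, -0.56 for H2-Aa, which is then under 1.5-fold, and -0.64 for H2-Eb1.

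**Figure D2:**
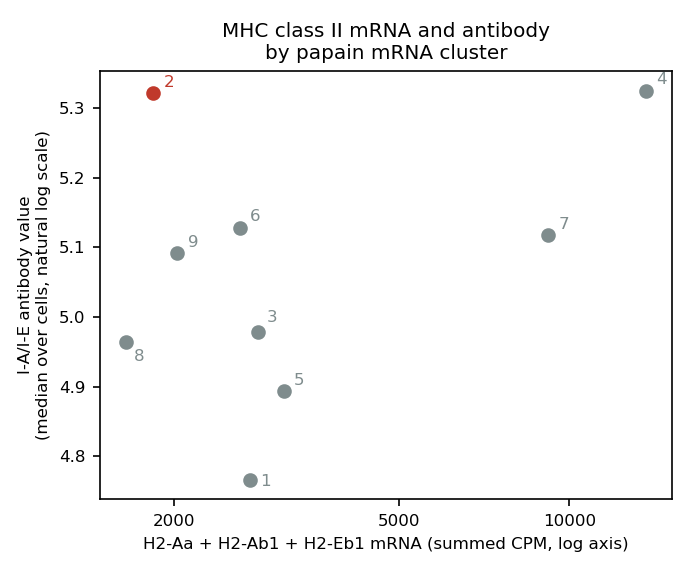
Summed H2-Aa, H2-Ab1 and H2-Eb1 mRNA (CPM, log axis) and the median I-A/I-E antibody value (natural-log scale) of the 9 papain mRNA clusters, each point 1 cluster of 1 library. Clusters 2 (red) and 4 share the highest scaled antibody value (tag counts 3812.5 and 1808) while their mRNA stands at 1833 and 13665 CPM.

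The MHC class II mRNA was spread unevenly over cells, in cluster 2 and elsewhere. The median cell had 406 CPM of the 3 genes together and the upper quartile was 1518 CPM, against 1336 and 4782 CPM in the other labelled cells, and the 130 cells with the most of these UMIs held 61.8% of them. By the same measure, the cells with the most held 50.3% in the other labelled cells and 51.8% in cluster 1. Across the 1294 cells, mRNA and antibody value had a Spearman rho of -0.013, given as a description since both come from the same cells and library; it was 0.208 across the other labelled cells pooled, 0.158 in cluster 1, 0.113 in cluster 4 and -0.229 in cluster 7. The invariant chain Cd74 (4281 against 5014 CPM) and the cysteine protease Ctss (511 against 624 CPM) differed less than 1.5-fold, and H2-DMa, which helps load peptides, was at 17.9 against 50.3 CPM (-1.44, and -0.76 without clusters 4 and 7). The promoters of H2-Aa and H2-Eb1, genes that moved together here, are shown for the 120 bases before the RefSeq transcript start (GRCm38.p6), with capitals at CTGATTGG, the Y box of MHC class II promoters that the factor NF-Y is known to bind:
H2-Aa, chr17:34287824-34287943, minus strand: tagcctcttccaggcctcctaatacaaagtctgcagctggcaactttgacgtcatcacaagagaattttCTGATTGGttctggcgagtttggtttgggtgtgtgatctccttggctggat
H2-Eb1, chr17:34305747-34305866, plus strand: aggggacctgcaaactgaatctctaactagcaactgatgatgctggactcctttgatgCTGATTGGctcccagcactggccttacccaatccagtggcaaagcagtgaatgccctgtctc
The motif began 51 bases before the start of H2-Aa and 62 bases before that of H2-Eb1. On either strand it occurred in 4.10% of the 32851 promoters of 300 bases in the table, and these data do not bear on its binding.

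For CD11c and CD301b, protein and mRNA are set side by side because the antibodies singled them out. Itgax, the CD11c gene, was at 2.95 CPM in cluster 2 (57 UMIs) and at 20.7 CPM in the other labelled cells, a log2 ratio of -2.45 (-2.75 to -2.16), and only cluster 7 (2.93 CPM) was as low. CD11c antibody and Itgax mRNA were thus both low. Mgl2, the CD301b gene, gave 3 UMIs in the whole cluster (0.156 CPM, interval 0.0321 to 0.454) and 1.11 CPM in the other cells, a log2 ratio of -0.87 (-1.05 to -0.50) that rests on these few UMIs. Mgl2 mRNA was about as scarce in clusters 3 (0.234 CPM), 7 (0.183 CPM) and 8 (0 UMIs), whose CD301b antibody medians were 1.43, 0.703 and 1.68, and the highest Mgl2 level, 7.40 CPM, was in cluster 9, with a CD301b antibody median of 0.371. Sirpa, the CD172a gene, was at 71.1 and 69.7 CPM.

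The genes were themselves the basis of the clustering, so the ratios that follow describe cluster 2 and support nothing. Of 2705 genes with at least 50 CPM in cluster 2 or in the other labelled cells, 109 (4.03%) were at least 1.5-fold higher in cluster 2 and 110 (4.07%) at least 1.5-fold lower. The 15 highest and 15 lowest ratios are called the leading genes. Khdc1a, a gene of the KH domain family, led at 231 CPM (interval 224 to 238) against 45.3 CPM, a log2 ratio of 2.33 (2.26 to 2.39). By cluster it ran from 4.93 CPM in cluster 1 to 195 CPM in cluster 7. After each cell was thinned to 8856 UMIs, which 1275 cells of cluster 2 and 4296 others reached, 37.1% and 11.9% of cells had a Khdc1a UMI (41.3% and 14.9% unthinned). The unthinned share was higher in cluster 7 (47.2%, interval 42.1% to 52.4%) than in cluster 2 (38.6% to 44.1%). Thinned Langerhans cells and cDC1s gave 7.06% and 2.92%.

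The genes highest in cluster 2 also included transcriptional regulators. Tlx2, a homeobox factor, was at 70.0 against 21.4 CPM (log2 ratio 1.66), and no other cluster exceeded 42.9 CPM. Spic, an Ets factor known from red pulp macrophages, was at 146 against 59.3 CPM (1.28), and Ikzf4, an Ikaros family factor, at 112 against 48.2 CPM (1.20). Prdm1, which encodes Blimp-1, was at 72.7 against 34.9 CPM (1.04), second to cluster 8 (80.8 CPM). Ctsc, which encodes the lysosomal protease cathepsin C, was at 476 against 189 CPM (1.33), with 325 CPM in cluster 7 as the next level. Cdkn2a, a locus of cell cycle inhibitors, was at 72.8 against 27.8 CPM (1.36), and the kinase gene Plk2 at 118 against 50.03 CPM (1.22). The remaining members were Gprc5a, Calm4, Jup, Cd81, Snn, Gm19951 and Stxbp6, with ratios of 1.04 to 1.42. Of the 15, 13 were higher in cluster 2 than in any other papain cluster, the exceptions being Prdm1 and Gm19951.

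Mucl1, a mucin-like secreted protein gene, was nearly absent from cluster 2, with 23 UMIs (1.19 CPM, interval 0.756 to 1.79), and was at 127 CPM in the other cells, a log2 ratio of -5.86 (-6.19 to -5.52). Its level was also 1.28 CPM in cluster 7 and 4.59 CPM in cluster 3, and it reached 279 CPM in cluster 1. Thinned, 0.992% of cluster 2 cells and 8.18% of the others had a Mucl1 UMI (1.70% and 9.56% unthinned), with 3.75% of Langerhans cells and 1.79% of cDC1s. Sod3, the extracellular superoxide dismutase gene, was at 12.9 against 92.3 CPM (-2.75), and clusters 4 and 7 were lower still, at 10.8 and 10.6 CPM. Fabp4, a fatty acid binding protein gene, was at 26.0 against 156 CPM (-2.53), below each of the other clusters, which ran from 53.7 to 199 CPM. F11r, which encodes the junction protein JAM-A, was at 17.9 against 87.5 CPM (-2.22). Ccrl2, a receptor that binds the chemoattractant chemerin, was at 24.8 against 86.8 CPM, and Klrk1, which encodes the receptor NKG2D, at 19.3 against 67.0 CPM. Clu, Mx1, Zmynd15, H2-DMa, Slc7a11, Fyb, Ifitm3, H2-Ab1 and AA467197 completed the list, with ratios of -1.60 to -1.37.

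**Figure D3:**
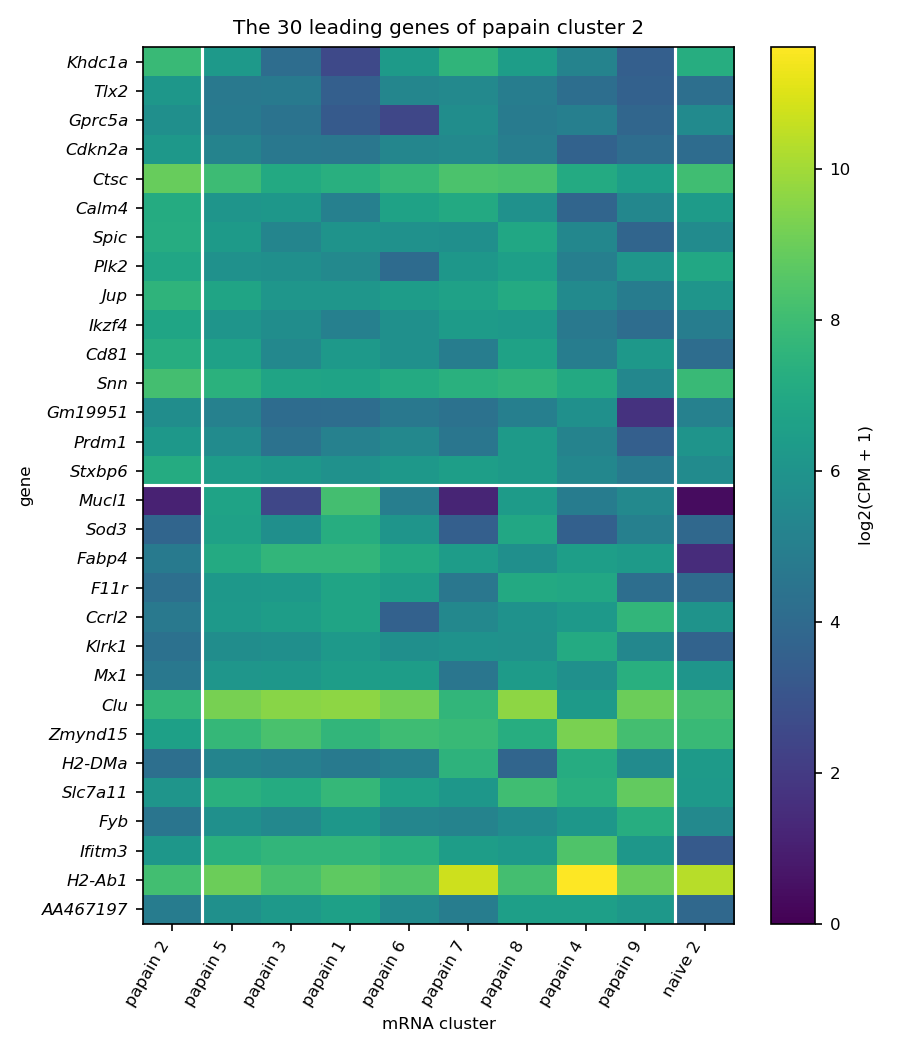
Level of the 30 leading genes (log2(CPM + 1), colour scale) in papain cluster 2, the 8 other papain clusters and naive cluster 2. Among the papain clusters Khdc1a is brightest in clusters 2 and 7 (231 and 195 CPM) and Mucl1 is darkest there (1.19 and 1.28 CPM).

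Cd86 and Cd274 stood out among the costimulatory and coinhibitory genes. Of the 16 genes listed for costimulation and coinhibition, 6 reached 50 CPM, 2 of these were at least 1.5-fold higher (4.03% of all genes were) and none was 1.5-fold lower (4.07% of all genes were), with a median log2 ratio of 0.45 beside -0.01 over all 2705 genes. Cd86, a ligand of CD28, was at 406 against 216 CPM (0.91) and was the highest of the 9 clusters, followed by 351 CPM in cluster 7. Cd274, which encodes the inhibitory ligand PD-L1, was at 373 against 234 CPM (0.67), also the highest. Cd80, the other CD28 ligand, was at 88.8 against 60.6 CPM (0.54), under 1.5-fold, and cluster 7 exceeded it. Pdcd1lg2, the gene of PD-L2, was at 18.7 against 15.7 CPM (0.24). Cd40, the receptor through which T cells activate DCs, was at 878 CPM (interval 864 to 891) against 687 CPM, a log2 ratio of 0.35 (0.33 to 0.38). The range over the other clusters was 118 CPM in cluster 9 to 1042 CPM in cluster 8.

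None of the 21 expressed genes of CD40 and NF-kB signalling, out of 25 listed, differed 1.5-fold in either direction. That count was near the shares of all genes, 4.03% higher and 4.07% lower. The median ratio of the 21 genes was 0.12, with 12 above 0 and 9 below. Nfkbia and Tnfaip3, feedback inhibitors of NF-kB, were at 3806 against 3274 CPM and 746 against 580 CPM, Nfkbid at 213 against 160 CPM, Tank at 379 against 292 CPM, Ikbkb at 471 against 406 CPM and Icam1, an adhesion gene driven by NF-kB, at 265 against 266 CPM. Il2, the gene of the T cell growth factor IL-2, gave 83 UMIs, or 4.30 CPM (interval 3.43 to 5.33), against 4.204 CPM, a log2 ratio of 0.03 (-0.26 to 0.31). An Il2 UMI occurred in 6.26% of cluster 2 cells and 6.43% of the other labelled cells. Thinned shares were 3.76% in cluster 2, 3.67% in the other labelled cells, 4.15% in Langerhans cells and 2.96% in cDC1s. At this depth no difference in Il2 between cluster 2 and these cells was detectable.

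Ccl17, Ccl5 and Ccl9 were the listed chemokine genes that were lower in cluster 2 than in the other labelled cells pooled. Of 16 listed, 7 reached 50 CPM, 6 of these had ratios below 0 (1402 of all 2705 genes did) and 3 were at least 1.5-fold lower (4.07% of all genes), none higher, with a median ratio of -0.42. Ccl17, whose product attracts CCR4+ T cells, was at 348 against 848 CPM (-1.28), or -0.78 with the other clusters weighted equally. By cluster it ran from 98.3 CPM in cluster 7 to 1296 CPM in cluster 1, so cluster 2 was not the lowest. Ccl5 was at 4088 against 8534 CPM (-1.06) and Ccl9 at 37.4 against 96.3 CPM (-1.34). Ccl22, which encodes the other CCR4 ligand, lay in the opposite direction at 2648 against 1770 CPM (0.58), just under 1.5-fold. Ccr7 was at 3449 against 3162 CPM (0.13), the fifth of 9 clusters, while Gpr183, a receptor for oxysterols that positions DCs, was the highest of 9 at 764 against 448 CPM (0.77).

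Of 20 genes of DC migration and maturation, 19 reached 50 CPM and 17 of these had ratios above 0 (1303 of all 2705 genes did), with a median of 0.30. Only Stat4 (122 against 79.0 CPM) passed 1.5-fold upward, and Cd200 and Anxa3 passed it downward, counts of 1 and 2 of 19 near the 4.03% and 4.07% of all genes. Fscn1, the actin bundling gene of mature DCs, was at 3512 against 2458 CPM (0.51). Of the transcription factors of the DC lineage, 13 of 24 were expressed. Only Irf4 passed 1.5-fold, at 106 against 65.0 CPM (0.69), where 4.03% of all genes were that much higher. Klf4 was at 90.1 against 114 CPM (-0.34).

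Metabolic and stress genes differed by list. Of 21 cholesterol and lipid genes, 9 reached 50 CPM. Of these, 4 were at least 1.5-fold higher (4.03% of all genes) and Fabp4 alone was at least 1.5-fold lower (4.07% of all genes). Those higher included Hmgcs1 (log2 ratio 0.62) and Cyp51 (0.60), which act in sterol synthesis, and Insig1 (0.69), which acts in its feedback. In the list of glycolysis and hypoxia, 4 of 9 expressed members (Gpi1, Tpi1, Eno1 and Hif1a) were at least 1.5-fold lower, against 4.07% of all genes, and the median was -0.52. Pfkfb3, which makes an activator of glycolysis, was the only higher one, at 831 against 449 CPM (0.89) and the highest of the 9 clusters. Of 32 interferon-stimulated genes, 11 reached 50 CPM, 4 were at least 1.5-fold lower (Isg15, Mx1, Rsad2 and Gbp2), against 4.07% of all genes, and none was higher (4.03% of all genes), with a median of -0.41. Isg15 was at 124 against 250 CPM, and cluster 4 alone had 602 CPM. The 16 expressed ribosomal protein genes had a median of -0.30. The ER stress genes Dnajb9 (166 against 96.6 CPM) and Sdf2l1 (95.2 against 61.8 CPM) were at least 1.5-fold higher, 2 of 7 expressed, against 4.03% of all genes.

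**Figure D4:**
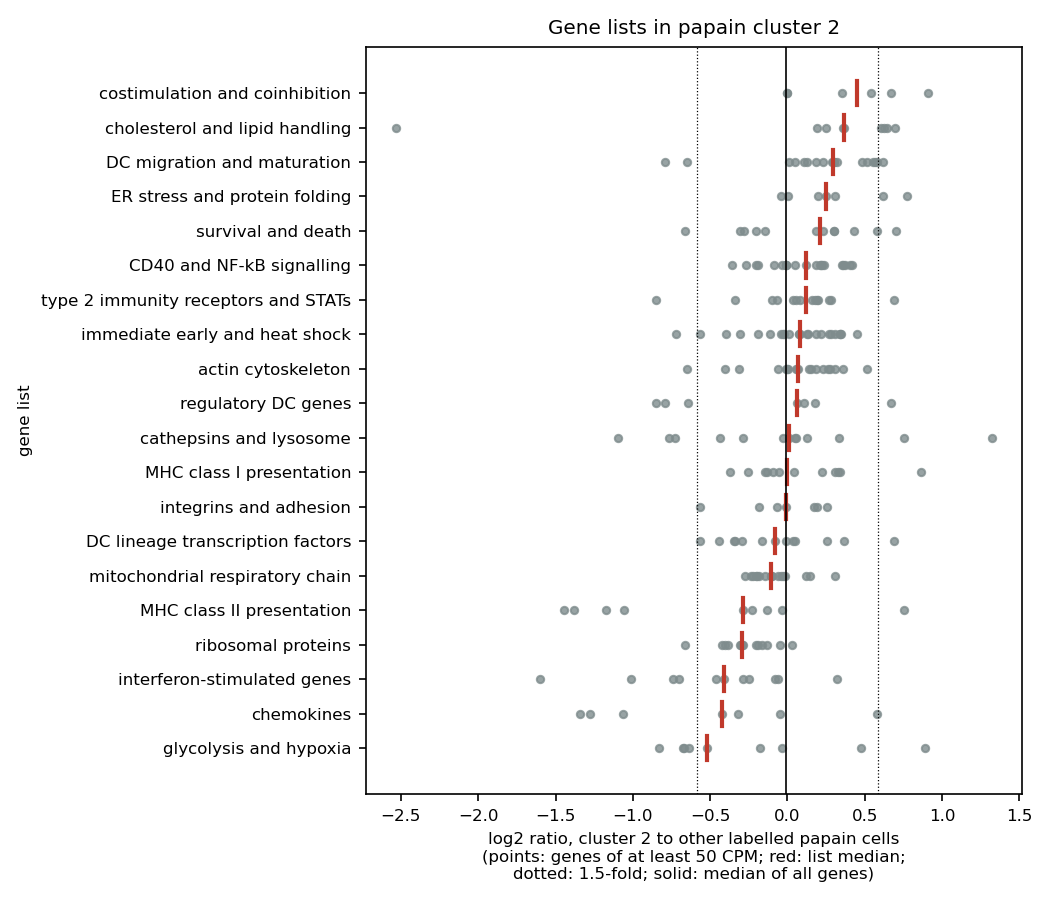
log2 ratio of cluster 2 to the other labelled papain cells for each gene of at least 50 CPM (grey points) in the role lists with at least 5 such genes, with the list median in red, dotted lines at 1.5-fold and a solid line at the median of all genes (-0.01). Costimulation has the highest median (0.45) and glycolysis and hypoxia the lowest (-0.52).

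Over 3457 genes of at least 50 CPM in some papain cluster, cluster 5 was most like cluster 2 (Pearson r of log2(CPM + 1) 0.974 across genes, which are not independent). Against cluster 5, 46 genes of 2718 (1.69%) were at least 1.5-fold higher in cluster 2 and 91 (3.35%) lower. Khdc1a, Tlx2, Gprc5a, Calm4 and 2610528A11Rik were the furthest above it, with ratios of 1.05 to 1.63, and Mucl1, Sod3, Fabp4, F11r and Ccl6 the furthest below, with -1.82 to -5.62. Cluster 5 lay between clusters 1 and 2 in 27 of the 30 leading genes. These genes were picked as the extremes of cluster 2, so that count was largely set in advance and supports nothing. The cells of cluster 5 were also the deepest, with a median of 30020.5 UMIs and 7715.5 antibody tags. Of its 560 cells, 208 were among the deepest 5% of the library. UMIs of both Khdc1a and Mucl1 occurred in 3.93% of its cells (interval 2.48% to 5.89%), against 0.541% in cluster 2 and 0.699% in cluster 1. Taken singly, Khdc1a and Mucl1 occurred in 31.25% and 17.1% of cells in cluster 5. The single shares were 41.3% and 1.70% in cluster 2 and 3.85% and 19.2% in cluster 1. The joint shares depend on the single shares, and no expected joint share was computed. The part of the depth of cluster 5 in the likeness was not tested.

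Cluster 3, with a CD301bhi share of 40.4%, came next in likeness. Against it, 230 genes of 2685 (8.57%) were higher in cluster 2 and 156 (5.81%) lower. H2-Ab1 differed little (-0.11), but H2-Aa (-0.65) and H2-Eb1 (-0.74) were lower in cluster 2, and the 3 genes summed to 2814 CPM in cluster 3. Against cluster 1, the largest cluster and one with a like CD301bhi share, 195 genes of 2778 (7.02%) were higher and 186 (6.70%) lower. There Khdc1a had a ratio of 5.29, Mucl1 of -7.00, Cd86 of 1.22 and Ccl17 of -1.89, whereas Cd40 was nearly level (0.04). Among clusters 1, 2 and 5, then, cluster 2 paired low CD11c, low Ccl17 and high Cd86 with the highest MHC class II antibody value.

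Within each CD301b class the leading genes kept their direction. Compared with other labelled cells of the same class, all 15 highest genes stayed above 0 in CD301bhi cells (median 1.17), CD301bint cells (1.18) and CD301blo cells (1.28), and all 15 lowest stayed below 0 (medians -1.66, -1.55 and -1.52). In CD301blo cells the lowest of the 15 highest ratios was 0.02. Cells of each class had also been used in the clustering, so this is a description. The median MHC class II antibody value was 5.34, 5.30 and 5.28 in the 3 classes of cluster 2, against 4.87, 4.95 and 5.20 in the same classes of the other cells. H2-Aa, H2-Ab1 and H2-Eb1 mRNA together was at 1903, 1656 and 1860 CPM against 2862, 3416 and 7700 CPM. The mRNA difference was thus largest in CD301blo cells, where the other cells stood highest, while cluster 2 was about level over the classes. Of the 1399 other CD301blo cells, 527 were in cluster 4 and 190 in cluster 7, the clusters with the most of this mRNA. Their part in the difference was not tested. The CD11c values were 1.49, 1.45 and 1.58 against 2.399, 2.18 and 2.29. Low CD11c was therefore found in CD301bhi, CD301bint and CD301blo cells of cluster 2 alike.

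**Figure D5:**
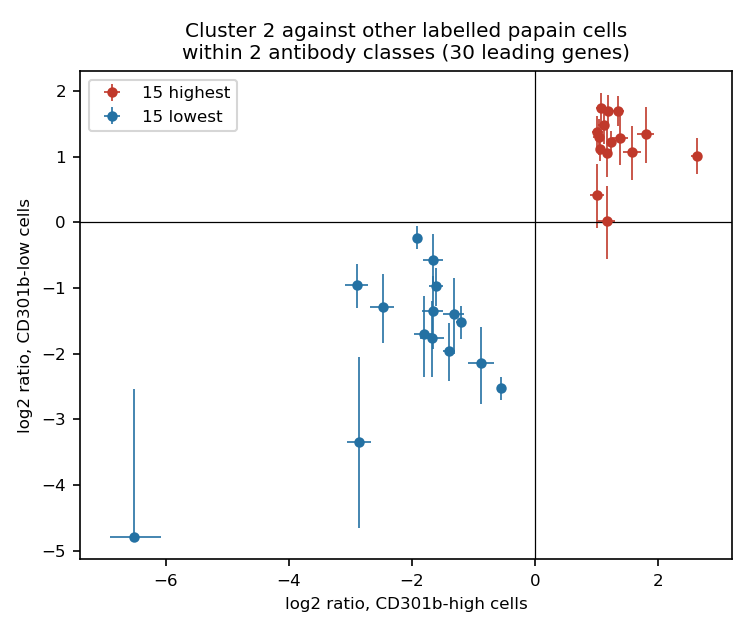
log2 ratio of cluster 2 to the other labelled papain cells for the 30 leading genes, computed in CD301bhi cells (x axis) and in CD301blo cells (y axis), with 95% counting intervals as bars. All 15 highest genes lie above 0 on both axes and all 15 lowest below 0, with wider intervals for the 71 CD301blo cells, some of which include 0.

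CD301b class is also a measure that the rule did not use, so its classes were compared inside cluster 2. Of the 15 highest leading genes 10 were higher in CD301bhi than in CD301blo cells (median log2 ratio 0.18), and of the 15 lowest 10 were lower (median -0.51). The largest shift among these 30 was that of Sod3, which was higher in CD301bhi cells at 15.4 against 3.04 CPM (2.02, 0.71 to 3.35). Khdc1a was at 235 CPM in CD301bhi cells, 242 in CD301bint and 121 in CD301blo cells, a log2 ratio of high to low of 0.96 (0.69 to 1.23). Spic went from 163 to 118 and 71.9 CPM (1.17, 0.83 to 1.52), Prdm1 from 84.25 to 50.4 and 37.5 CPM (1.15, 0.69 to 1.65) and Pfkfb3 from 886 to 739 and 590 CPM (0.59). Fabp4 ran the other way, from 18.0 to 37.0 and 74.0 CPM (-1.98, -2.36 to -1.59), as did Stat4, from 106 to 146 and 214 CPM (-1.01), and Cd86, from 374 to 459 and 558 CPM (-0.58, -0.70 to -0.45). H2-Ab1 (0.08, -0.10 to 0.26), Cd40 (-0.06, -0.16 to 0.04) and Plk2 (0.05, -0.22 to 0.34) had intervals that included 0. Only 71 cells stand behind the CD301blo values, and all cells share 1 library.

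By the label header, the naive cells were clustered apart from the papain cells. Their most similar cluster, by the same correlation, was naive cluster 2, with 432 cells and r of 0.936. Because it was picked for its likeness, the shared directions are a description. Against the other labelled naive cells, 152 of 2626 genes (5.79%) were at least 1.5-fold higher in that cluster and 216 (8.23%) lower. Of the 15 highest leading genes 14 were above 0 there, with Khdc1a at 2.86, and of the 15 lowest 14 were below 0, with Mucl1 at -5.37 and Fabp4 at -3.99. The exceptions were Cd81, with a ratio of -2.15, and Zmynd15, with 0.09. Cd86, among the genes highest in papain cluster 2, had a ratio of -0.00 in the naive cluster, and Irf4 had -0.12. Naive cluster 2 had a median MHC class II antibody value of 5.73 and 7037 CPM of H2-Aa, H2-Ab1 and H2-Eb1 together. These levels come from another library and node site than the 5.32 and 1833 CPM of papain cluster 2.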

How the data were processed

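CITE-seq data of sorted migratory DCs were used from 1 naive and 1 papain library (53095046 and 122133401 UMIs). Per the submitters' processing notes, Cell Ranger 3.0.1, Partek and mm10 were used. Strand setting and gene annotation are not given in the sources used here. The authors deposited expression as log2 values of CPM plus 1. Each value was turned back into whole UMIs, and 100% of low values were whole within 0.02 UMIs. CPM were formed over the full depth of each cell, including genes that are not listed. The number of detected genes and the antibody totals were deposited as counts. The deposited mitochondrial percent and the deposited total score of the expression data were not used, and mitochondrial shares were recomputed from UMIs. Antibody values were deposited on a natural log scale after scaling within each cell, and tag counts were recovered from them and the antibody totals.

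UMIs were summed over cells. log2 ratios had 1 CPM added to both sides. A gene was counted at a 1.5-fold difference with at least 50 CPM on the higher side. Intervals (95%) were exact Poisson for CPM, exact Clopper-Pearson for shares and exact conditional binomial for ratios. With 1 library per condition no p-value was computed. Ratios and intervals were tested on simulated Poisson counts. The intervals assume such counts, so that test checks the computation only and does not cover uneven spread over cells. No doublet caller was run, and cells were not filtered beyond the authors' own labels. Python 3.11.15, numpy 2.4.6, pandas 2.3.3, scipy 1.17.1 and matplotlib 3.10.9 were used. The clusters and CD301b classes are the authors' (CD301b+, CD301bint and CD301b- in the files, written CD301bhi, CD301bint and CD301blo). Named genes were the 15 highest and 15 lowest ratios, the 5 highest and 5 lowest against the most similar papain cluster, members of 38 gene lists (up to 6 past 1.5-fold and up to 4 of highest level in each) and a fixed set around Mgl2, Cd40 and Il2. Sirpa, Itgam, Clec10a, Cd209a, Cd7, Xcr1, Clec9a, Cd207, Cd3e, Ctss and Rsad2, outside these limits, were named as defining markers or list members after their values were seen. CD11b and CD24 share 1 tag sequence. Some list members are not reported here. The members and lists were chosen with earlier results of these data known.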

Additional observations from a re-analysis of the deposited data

How the results depend on the processing

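No paired analysis was possible because each condition has 1 library, and no replicate could be left out for the same reason. The CD301bhi share became 52.9% when the classes were replaced by tertiles of the antibody value over all labelled cells. The CD301bhi class holds 2893 of the 6190 labelled cells, more than a top tertile does, so these shares have unlike bases. The share of labelled cells in cluster 2 became 23.0% without cluster 5 (an alternative chosen after seeing the data). Asking for 2 UMIs of Cd3e and Trac left 0.464% of cells. The 109 higher genes became 46 against cluster 5 only, and higher and lower genes became 232 and 397 at a minimum of 10 CPM, 418 and 1179 with no minimum, and 19 and 37 at 2-fold. The Mgl2 ratio was -0.13 with 10 CPM added, -1.20 with clusters weighted equally and -0.39 against cluster 5. The Cd40 ratio was 0.44 as a mean over cells, 0.40 after scaling to the median ratio, 0.60 with clusters weighted equally, 0.13 against cluster 5, 0.39 without the deepest cells, and, in alternatives chosen after seeing the data, 0.42 without cluster 5 and 0.23 without clusters 4 and 7. The gene ratios were rerun for the leading genes, those furthest from cluster 5, the fixed set and a few list members. Most genes named only as list members were not rerun. The 41 rerun genes past 1.5-fold kept their direction in the 10 alternatives. Of these, Irf4 fell below it with clusters weighted equally, Irf4, Pfkfb3, Cd274 and Gpr183 against cluster 5, and H2-Aa without clusters 4 and 7. The cause was not tested. With 1 library, variation between mice is unknown, and genes of a few CPM, such as Mgl2 and Il2, were read from few UMIs.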

Other observations

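Of 24 expressed immediate early and heat shock genes, 1 (Hspe1, 140 against 232 CPM) passed 1.5-fold, and none of 17 mitochondrial respiratory chain genes and none of 7 integrin and adhesion genes did. These counts were near the shares of all genes, 4.03% higher and 4.07% lower. The pattern recognition list was lower, at 46.1 CPM summed against 124.6 CPM. Over the 9 papain clusters its sum ran from 43.4 to 265.7 CPM, so cluster 2 was not the lowest. None of the 22 listed genes of pattern recognition and C-type lectins reached 50 CPM. Among them Clec12a, an inhibitory lectin receptor, was at 0.829 CPM in cluster 2 and 22.8 CPM in the other labelled cells, and Clec7a, the receptor for beta-glucans, at 10.6 and 35.6 CPM. Both were chosen after their values were seen.

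Genes of lysosomal proteins went in both directions. Ctsc and Lgmn, which encode the proteases cathepsin C and legumain, were at least 1.5-fold higher (Lgmn at 303 against 180 CPM), while Psap, Grn and Npc2 were at least 1.5-fold lower (Psap at 202 against 433 CPM), and 8 of the 13 expressed genes were within 1.5-fold. Of all genes, 4.03% were at least 1.5-fold higher and 4.07% lower. Survival genes were likewise divided, with the pro-apoptotic gene Pmaip1 at 365 against 224 CPM and Bcl2a1a, an anti-apoptotic gene with near-identical copies whose counts are uncertain, at 68.3 against 109 CPM. Of 14 expressed genes of type 2 immunity receptors and STATs, Irf4 was higher and Socs3 lower, and of 12 MHC class I genes only Nlrc5, a transactivator of that pathway, passed 1.5-fold, at 198 against 109 CPM. None of the 2 expressed cell cycle genes passed it, and of 19 actin cytoskeleton genes Coro1a alone did, downward. In the lists from survival genes on, at most 1 gene passed in each direction, near the shares of all genes.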
